A study of Mus musculus with 25 samples.

Results

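Cultured induced hepatocytes (iHeps) were compared with colon crypts across the whole transcriptome, which gave 5 of the 25 arrays of the series. The iHep arrays (iHep replicates 1 to 3) held independent cell lines made from C57BL/6J mouse embryonic fibroblasts (E13.5) by serial retroviral transduction of Foxa1 and Hnf4a. These lines were grown on collagen in a hepatocyte medium with insulin, dexamethasone, nicotinamide, hepatocyte growth factor and epidermal growth factor, and received no shRNA. The colon arrays (Colon replicates 1 and 2) held crypts freshly taken with EDTA and trypsin from Rag2gammac-/- mice aged 8 weeks, which lack T, B and NK cells. The strain or genotype, the culture and the age therefore differed together between the groups, and their parts cannot be told apart. A retroviral cDNA and the endogenous gene cannot be separated on an array, and a probe set outside the inserted cDNA does not see the transgene. Members were chosen by sample title, and all 34945 probe sets with 1 gene symbol were used, which named 18193 genes, of which 15262 passed the filter on low signal. Colon-engrafted iHeps (engrafted for 12 days), fetal liver (E14.5) and adult liver (2 arrays each) shared the model and are cited only as levels. The labels of adult liver conflict on age and on whole liver against isolated hepatocytes.

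Foxa1 and Hnf4a are endoderm transcription factors used by both liver and gut epithelium, and together they turn fibroblasts into cells that secrete hepatocyte proteins. The identity of the colon is set by the caudal homeobox factors Cdx1 and Cdx2 and by posterior HOX genes, and its crypts hold stem cells, absorptive colonocytes, mucus-secreting goblet cells, enteroendocrine cells and tuft cells. The series was built around scoring how closely engineered cells resemble their target tissue, and the comparison asks which genes of the intestinal programme iHeps share with colon epithelium and which they lack.

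Values were RMA log2 signals, on which a difference of 1 is a doubling, and every difference is iHep minus colon. Replicates of a group resembled each other more than the other group: Pearson's r over genes was 0.966 to 0.985 among the iHep arrays, 0.989 between the colon arrays and 0.78 to 0.793 between the groups. The median SD of a gene was 0.207 over the iHep arrays (n = 3) and 0.137 over the colon arrays (n = 2).

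The arrays of both groups also differed in their control probe sets. Poly-A spikes are bacterial transcripts added to the RNA before amplification. All 24 spike probe sets were higher on every iHep array than on both colon arrays, by a median of 4.14 (range 2.20 to 8.96). All 18 hybridisation control probe sets, whose targets are added before hybridisation, were lower on every iHep array, by a median of −1.78 (range −2.53 to −0.86). Over the series, spike signal lay above the 40th percentile of the array on 15 arrays (cultured iHeps with or without shRNA, fetal and adult liver) and below it on 10 (engrafted iHeps, colon and induced macrophages), so sample preparation and the iHep against colon contrast cannot be told apart. Of the genes tested, 1561 separated those 15 arrays from those 10 without overlap, and they made up 1419, or 17.4%, of the genes called here. The 3 prime probe set of 18S ribosomal RNA was at 12.63, 12.04 and 12.19 in iHeps, against 14.76 and 14.76 in colon crypts. For Tfrc, the transferrin receptor, the 5 prime control probe set was at 5.07, 4.21 and 5.26 in iHeps, against 10.86 and 10.67 in colon crypts, whereas the gene's strongest probe set gave 11.53, 11.19 and 11.19 in iHeps, against 10.80 and 10.86 in colon crypts (difference 0.48, SE 0.3, adjusted p = 0.211). Its 2 other probe sets were called lower. The 3 prime minus 5 prime difference of the Gapdh control probe sets was −0.04, −0.09 and 0.04 in iHeps, against 0.79 and 0.86 in colon crypts, and that of Actb was 0.36, 0.41 and 0.41 in iHeps, against −0.15 and −0.23 in colon crypts. The part of these preparation differences in the results was not tested.

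**Figure D1:**
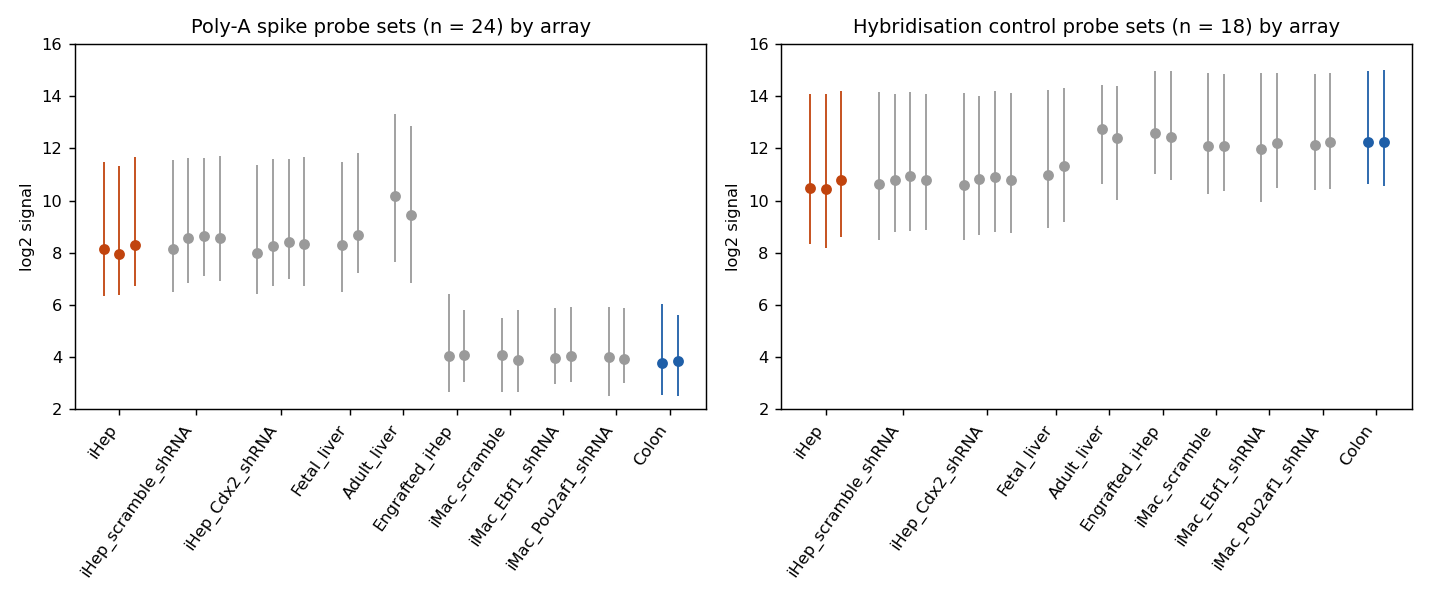
Log2 signal of the 24 poly-A spike probe sets (left) and the 18 hybridisation control probe sets (right) on each of the 25 arrays, by group, with points at the median and lines from the lowest to the highest probe set. The 3 iHep arrays (orange) had spike medians of 8.13, 7.97 and 8.31, against 3.78 and 3.85 on the colon arrays (blue), and engrafted iHeps and induced macrophages were at the level of colon.

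Between iHeps and colon, 8173 of 15262 genes tested (53.6%) passed the threshold, an adjusted p under 0.05 from limma with Benjamini-Hochberg adjustment over all genes. Of these, 4926 (32.3% of the genes tested) were higher and 3247 (21.3%) were lower in iHeps. With no test, 77.7% of genes had iHep and colon arrays that did not overlap. The large differences ran the other way: 608 genes were higher by at least 3, against 685 that were lower by as much, and at 5 or more the counts were 132 higher and 225 lower. The median difference over all genes was 0.22; it was 0.35 with each array centred on its median, 0.30 with quantile normalization repeated, and 0.08 with the mean of all probe sets of a gene. For 1858 of the called genes every array of 1 group was below its 40th percentile, where background sets the level, so those differences have no exact size. Probe sets of one gene did not always move alike, and 896 called genes had another probe set called in the opposite direction.

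**Figure D2:**
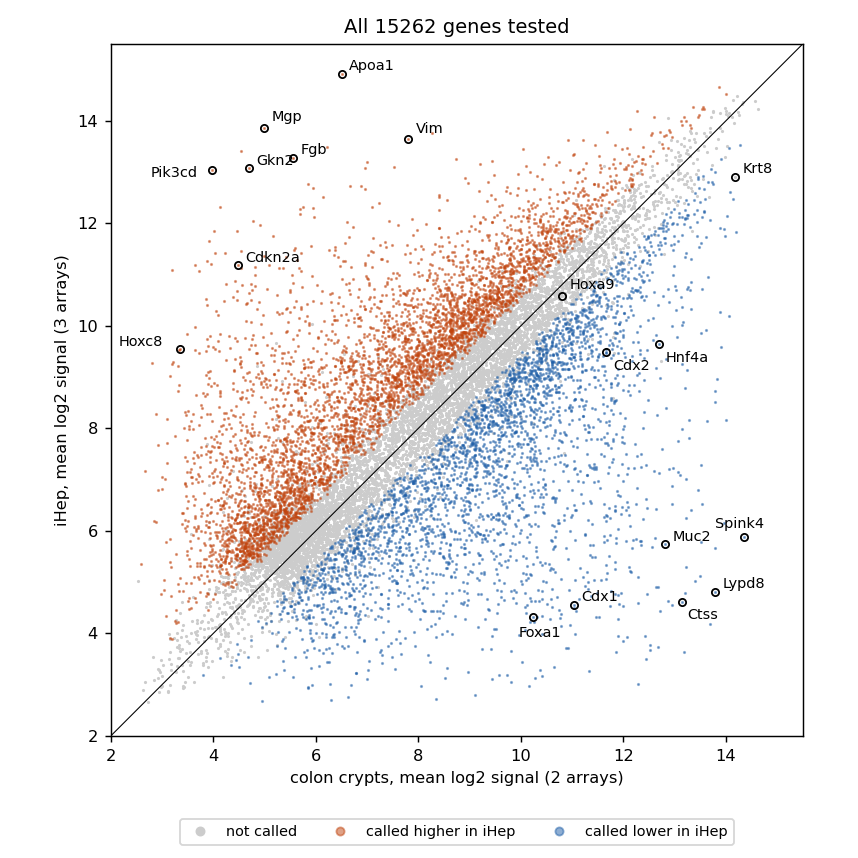
Mean log2 signal of each of the 15262 genes tested in the 3 iHep arrays (vertical axis) and the 2 colon arrays (horizontal axis), coloured by the call, with selected genes circled. Called genes lay on both sides of the diagonal, and Lypd8, Spink4 and Muc2 lay far below it while Apoa1, Mgp and Fgb lay far above it.

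Among named genes whose groups did not overlap, the largest positive difference belonged to Pik3cd, a lymphoid phosphoinositide 3-kinase subunit, at 12.79, 12.78 and 13.58 in iHeps, against 4.0 and 3.97 in colon crypts. It rested on 1 of 6 probe sets, since the other 5 differed by −0.12 to 1.57. Over the 25 arrays this probe set followed the signal of the dap spike (Pearson's r = 0.998 with its 3 prime probe set), lying at 12.78 to 14.21 on the 15 arrays with spike signal and at 3.46 to 4.54 on the 10 without. The split of its levels followed spike signal across cell types. The points of that correlation share amplification and array processing, and 74 genes tested, Kng1 among them, had r over 0.95 with the same spike probe set.

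Other large positive differences were those of Serpina1b and Mgp. Serpina1b, an alpha-1 antitrypsin made by hepatocytes, was at 13.88, 13.46 and 12.87 in iHeps, against 4.13 and 4.94 in colon crypts (difference 8.87, SE 0.58, adjusted p = 2.58e-06). Mgp, a matrix protein that limits calcification, was at 13.83, 13.93 and 13.83 in iHeps, against 4.7 and 5.28 in colon crypts (difference 8.87, SE 0.29, adjusted p = 5.11e-08). Every iHep array was far above both colon arrays for each of them, and Serpina1b and Bex4 separated the arrays by spike signal. Klhl13 (a ubiquitin ligase adaptor), Crabp1 (a retinoic acid binding protein), Bex4, Fgf13 (an intracellular fibroblast growth factor homologue) and Hs6st2 (a heparan sulfate sulfotransferase) were also high, with differences of 8.19, 7.84, 7.73, 7.56 and 7.39. The most negative difference was that of Sval1. Sval1, a secreted seminal vesicle antigen-like protein, was at 3.84, 3.85 and 3.25 in iHeps, against 13.11 and 13.27 in colon crypts (difference −9.54, SE 0.29, adjusted p = 3.1e-08). Gsdmc2, a gasdermin of colon epithelium, was at 3.0, 3.04 and 3.01 in iHeps, against 12.24 and 12.33 in colon crypts (difference −9.27, SE 0.57, adjusted p = 1.67e-06). Slfn4 (a schlafen protein of myeloid cells), Mptx1 (a mucosal pentraxin), Tmem45b (a membrane protein), Hao2 (a hydroxyacid oxidase) and Pglyrp1 (a peptidoglycan recognition protein) differed by −9.51, −8.94, −8.93, −8.85 and −8.42. All of these were under the 40th percentile on every iHep array.

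**Figure D3:**
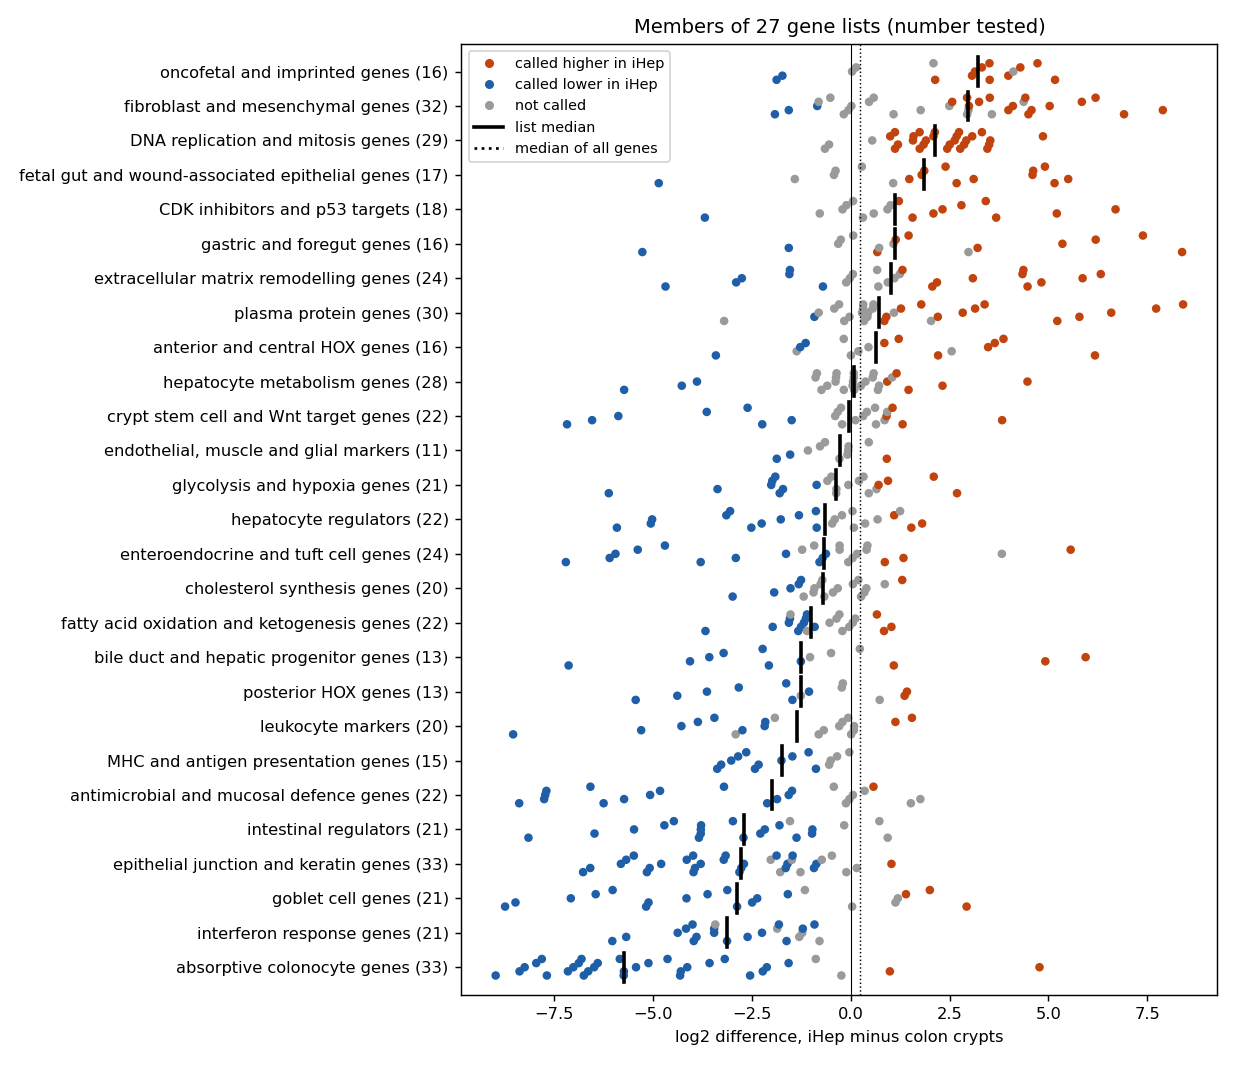
Log2 difference, iHep minus colon, of every tested member of 27 gene lists, 1 point per gene, coloured by the call, with the list median as a bar and the median of all genes as a dotted line. The lists of absorptive colonocyte genes (median −5.74) and interferon response genes (median −3.13, range −3.27 to −1.62 over the alternatives) lay lowest, and those of oncofetal and imprinted genes (3.23, range 1.65 to 3.78 over the alternatives) and fibroblast genes (2.96, range 1.84 to 4.25) highest.

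Intestinal transcription factors were lower in iHeps, but to very different degrees. Of 21 tested, 17 were lower, against 21.3% of all genes tested, and 0 higher, with a median difference of −2.71 (the higher count was 1 without iHep replicate 2). Where an alternative moved a list's median by over 1.5 times, the range over all alternatives is given beside it. The counts of every list stand against 32.3% of all genes tested that were higher and 21.3% that were lower. Cdx2, the master regulator of intestinal identity, was at 10.33, 8.97 and 9.17 in iHeps, against 11.70 and 11.63 in colon crypts (difference −2.17, SE 0.39, adjusted p = 0.00119). All iHep arrays were below both colon arrays, yet far above adult and fetal liver, where the same probe set averaged 5.88 ± 0.25 and 5.33 ± 0.5 (SD, n = 2 each). Its paralogue Cdx1 averaged 4.56 ± 0.15 in iHeps (SD, n = 3) and 11.04 ± 0.06 in colon crypts (SD, n = 2) (difference −6.48, SE 0.23, adjusted p = 7.34e-08), which put the iHep arrays at the level of adult liver (4.49 ± 0.38, SD, n = 2). Klf5, a factor of crypt cell growth, was at 10.71, 9.9 and 10.41 in iHeps, against 13.42 and 13.21 in colon crypts (difference −2.98, SE 0.32, adjusted p = 5.27e-05). Klf4, which promotes differentiation of the colon surface, was at 12.10, 11.44 and 11.76 in iHeps, against 13.11 and 13.16 in colon crypts (difference −1.37, SE 0.44, adjusted p = 0.0244), a call that was lost with adjusted p = 0.0737 without iHep replicate 2, 0.0524 without iHep replicate 3, 0.095 without Colon replicate 1 and 0.104 without Colon replicate 2. Both Krüppel-like factors were well above adult liver, at 4.82 ± 0.55 for Klf5 and 5.77 ± 1.26 for Klf4 (SD, n = 2). Sox9, a crypt base factor, differed by −1.8 ± 0.37 (SE, adjusted p = 0.00273), and Tcf7l2, the Wnt effector of crypts, by −2.29 ± 0.37 (SE, adjusted p = 0.000696).

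Factors of the differentiated epithelium showed the other pattern. Ehf, an epithelial ETS factor, was at 3.71, 4.1 and 3.96 in iHeps, against 12.06 and 12.09 in colon crypts (difference −8.15, SE 0.19, adjusted p = 2.27e-08), and Elf3, a related factor, differed by −4.71 ± 0.26 (SE, adjusted p = 8.41e-07). Hnf4g, the gut paralogue of Hnf4a, was at 4.22, 3.74 and 4.01 in iHeps, against 8.46 and 8.46 in colon crypts (difference −4.47, SE 0.31, adjusted p = 3.9e-06). Atoh1 and Spdef, which direct the secretory and goblet cell fates, differed by −3.79 ± 0.47 (SE, adjusted p = 0.000143) and −3.78 ± 0.25 (SE, adjusted p = 2.7e-06). Isx, a repressor of vitamin A uptake, and Vdr, the vitamin D receptor, differed by −3.79 ± 0.36 (SE, adjusted p = 2.74e-05) and −3.84 ± 0.66 (SE, adjusted p = 0.000994). For Ehf, Hnf4g, Atoh1 and Isx every iHep array was under the 40th percentile. Hes1, the Notch target that favours absorptive fate, and Foxp1 did not pass the threshold; Hes1 was at 10.95, 8.82 and 10.31 in iHeps, against 9.17 and 9.01 in colon crypts (difference 0.94, SE 0.57, adjusted p = 0.192). Ehf also had a probe set called in the opposite direction, and both Ehf and Creb3l1 (difference −5.48) separated the arrays by spike signal.

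The HOX genes differed by cluster and position. Among 13 posterior HOX genes, 7 were lower and 2 higher in iHeps (median −1.26). Among 16 anterior and central ones 3 were lower and 7 (43.8%) higher, against 32.3% of all genes tested (median 0.65, range 0.45 to 1.71). Hoxb13, which marks the most distal gut, was at 5.58, 6.27 and 7.34 in iHeps, against 11.91 and 11.76 in colon crypts (difference −5.44, SE 0.62, adjusted p = 8.17e-05). Hoxa13 and Hoxd13, of the same positional group, differed by −4.39 ± 0.26 (SE, adjusted p = 1.3e-06) and −2.83 ± 0.49 (SE, adjusted p = 0.000986). Hoxa9 was instead at 10.28, 10.66 and 10.81 in iHeps, against 10.74 and 10.88 in colon crypts, with a difference of −0.23 (95% interval −0.79 to 0.34, adjusted p = 0.478), and both groups were above adult liver (3.92 ± 0.51, SD, n = 2). Hoxc8, a HOX gene of the trunk, was at 8.65, 9.96 and 10.01 in iHeps, against 3.24 and 3.48 in colon crypts (difference 6.18, SE 0.42, adjusted p = 3.03e-06), the largest positive HOX difference. Hoxc4, Hoxb2 and Hoxb3 were higher by 3.86, 3.64 and 3.48, and Hoxc9 by 1.36; Hoxb2 separated the arrays by spike signal. Hoxa3 was lower (difference −3.41). Colon thus had the higher levels of the positional group 13 genes and iHeps those of the HOXC cluster members called.

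**Figure D4:**
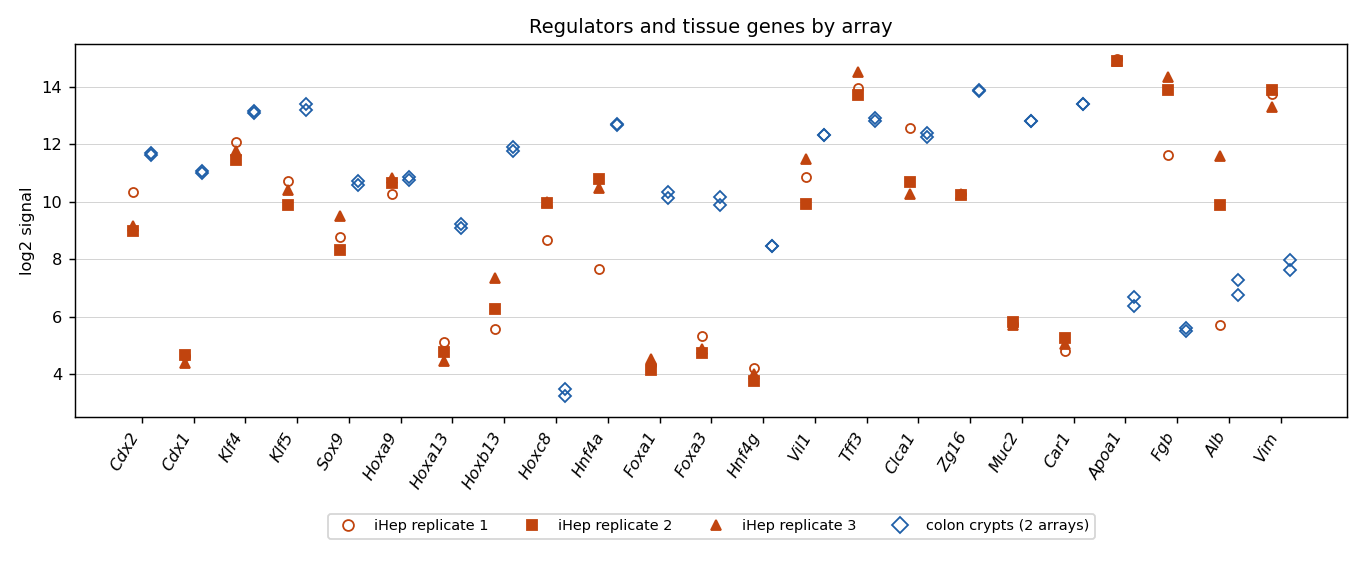
Log2 signal by array of 23 transcription factors and tissue genes, with the 3 iHep arrays (orange, left of each pair) and the 2 colon arrays (blue, right). Cdx2, Klf4, Klf5 and Hoxa9 were detected in both groups, Cdx1, Muc2 and Car1 were near background in iHeps, and Apoa1, Fgb, Vim and Hoxc8 were higher in every iHep array.

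Absorptive colonocyte genes were the most strongly lower list. Of 33 tested, 29 were lower and 2 higher, with a median of −5.74; the higher count was 1 without iHep replicate 1, iHep replicate 2, Colon replicate 1 or Colon replicate 2. Car1, a cytosolic carbonic anhydrase of the colon, was at 4.8, 5.26 and 5.03 in iHeps, against 13.40 and 13.41 in colon crypts (difference −8.38, SE 0.36, adjusted p = 1.93e-07). Slc26a3, the chloride and bicarbonate exchanger of the surface, was at 4.55, 5.01 and 4.77 in iHeps, against 12.44 and 12.48 in colon crypts (difference −7.68, SE 0.24, adjusted p = 3.1e-08). The iHep arrays were at or near background for both, as they were for Car4, a membrane carbonic anhydrase that separated the arrays by spike signal (−7.95), Guca2a, which encodes guanylin (−7.81), Cyp2c55, a cytochrome P450 (−8.25), and Lypd8, which keeps flagellated bacteria from the mucosa (−8.98). Krt20, a keratin of differentiated surface cells, differed by −6.75 ± 0.67 (SE, adjusted p = 3.45e-05). Brush border genes split in iHeps. Vil1, the actin bundler of microvilli, was at 10.85, 9.92 and 11.51 in iHeps, against 12.34 and 12.31 in colon crypts (difference −1.57, SE 0.39, adjusted p = 0.00691), whereas Cdhr2 and Cdhr5, cadherins of the intermicrovillar links, differed by −7.15 ± 0.37 (SE, adjusted p = 6.43e-07) and −5.74 ± 0.28 (SE, adjusted p = 4.97e-07), and Myo1a, a brush border myosin, by −6.49 ± 0.35 (SE, adjusted p = 8.32e-07). Ceacam1, an adhesion molecule of epithelia, was at 11.25, 8.02 and 9.5 in iHeps, against 13.83 and 13.98 in colon crypts (difference −4.31, SE 0.74, adjusted p = 0.00092), with iHep replicate 1 highest and replicate 2 lowest. Slc16a1, a monocarboxylate transporter, was at 12.20, 11.89 and 12.04 in iHeps, against 12.31 and 12.25 in colon crypts and did not pass the threshold (difference −0.24, SE 0.2, adjusted p = 0.333). Mal, an apical sorting protein, was higher, at 9.84, 10.46 and 12.09 in iHeps, against 6.59 and 5.45 in colon crypts (difference 4.78, SE 0.6, adjusted p = 0.000152).

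Most genes of the goblet cell list were lower in iHeps, to very different degrees. Of 21 genes, 14 (66.7%) were lower, against 21.3% of all genes tested, and 3 (14.3%) were higher, against 32.3% (median −2.87). In such bulk samples fewer cells of a type and less RNA per cell cannot be told apart. Muc2, the gel-forming mucin, was at 5.74, 5.79 and 5.7 in iHeps, against 12.82 and 12.82 in colon crypts (difference −7.08, SE 0.21, adjusted p = 3.1e-08). Agr2 and Spink4, both made in goblet cells, differed by −8.74 ± 0.34 (SE, adjusted p = 1.14e-07) and −8.48 ± 0.23 (SE, adjusted p = 2.51e-08), and Fcgbp, a mucus protein, by −5.17 ± 0.33 (SE, adjusted p = 2.12e-06). Zg16, a lectin of goblet granules, was at 10.28, 10.23 and 10.28 in iHeps, against 13.86 and 13.90 in colon crypts (difference −3.62, SE 0.21, adjusted p = 1.25e-06), lower in every iHep array and yet above adult liver (8.55 ± 0.33, SD, n = 2). Tff3, the intestinal trefoil factor, was at 13.97, 13.71 and 14.51 in iHeps, against 12.93 and 12.82 in colon crypts; every iHep array was above both colon arrays, and the difference of 1.19 ± 0.68 (SE, adjusted p = 0.165) did not pass the threshold. Clca1, a secreted mucus protease, was at 12.56, 10.69 and 10.26 in iHeps, against 12.40 and 12.26 in colon crypts (difference −1.16, SE 0.59, adjusted p = 0.122), and the groups overlapped through iHep replicate 1. In adult liver these genes averaged 8.18 ± 2.11 for Tff3 and 3.7 ± 0.12 for Clca1 (SD, n = 2). Sytl2, a granule transport protein, was higher by 2.93 ± 0.32 (SE, adjusted p = 5.93e-05). Gcnt3, a mucin glycosyltransferase, was at 12.17, 11.73 and 12.58 in iHeps, against 9.87 and 10.44 in colon crypts (difference 2.0, SE 0.4, adjusted p = 0.00238), but another of its probe sets was called lower, and the difference did not pass the threshold with the mean of its probe sets (0.73, adjusted p = 0.0651).

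Several enteroendocrine genes were lower in iHeps. Of 24 tested, 11 were lower and 3 higher (median −0.67, range −1.17 to −0.49); the lower count was 6 without Colon replicate 1 and 6 without Colon replicate 2. Chgb, a granin of endocrine granules, was at 4.77, 4.41 and 4.45 in iHeps, against 11.72 and 11.77 in colon crypts (difference −7.2, SE 0.26, adjusted p = 7.34e-08), and the hormone genes Insl5, Pyy and Gcg differed by −6.1 ± 0.24 (SE, adjusted p = 1.36e-07), −5.95 ± 0.54 (SE, adjusted p = 1.86e-05) and −5.39 ± 0.27 (SE, adjusted p = 5.21e-07). All iHep arrays were near background for these hormones. Cpe, a prohormone carboxypeptidase, was at 13.51, 12.99 and 12.77 in iHeps, against 7.78 and 7.28 in colon crypts (difference 5.56, SE 0.46, adjusted p = 9.93e-06). The tuft cell markers Trpm5 and Il25 did not pass the threshold, with both groups at low signal.

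Crypt stem cell and Wnt target genes had no common direction: of 22, 7 (31.8%) were lower and 4 (18.2%) higher. Over all genes tested 21.3% were lower and 32.3% higher. The median of the list was −0.05 (range −0.25 to 0.18). The higher count was 1 without Colon replicate 1, 2 without Colon replicate 2 and 2 with genes that separated arrays by spike signal left out. Prom1, a membrane glycoprotein of crypt cells, was at 5.11, 5.08 and 5.15 in iHeps, against 12.22 and 12.35 in colon crypts (difference −7.17, SE 0.22, adjusted p = 3.1e-08). Myb, a factor of crypt proliferation, was at 5.31, 5.67 and 4.84 in iHeps, against 11.06 and 11.23 in colon crypts (difference −5.88, SE 0.26, adjusted p = 2.57e-07). Aqp4, a water channel, was at 4.55, 4.35 and 4.58 in iHeps, against 10.99 and 11.08 in colon crypts (difference −6.54, SE 0.21, adjusted p = 4.05e-08). The feedback inhibitors Axin2 and Rnf43, both direct Wnt targets, differed by −2.24 ± 0.3 (SE, adjusted p = 0.000212) and −3.64 ± 0.51 (SE, adjusted p = 0.000296). Lgr5, the receptor that marks crypt base stem cells, was at 5.36, 6.03 and 6.41 in iHeps, against 6.99 and 5.54 in colon crypts (difference −0.33, SE 0.62, adjusted p = 0.679), and Olfm4 was at background on all 5 arrays (−0.25). Cd44, a hyaluronan receptor of crypt cells and fibroblasts, was at 12.13, 12.17 and 11.66 in iHeps, against 8.09 and 8.23 in colon crypts (difference 3.83, SE 0.59, adjusted p = 0.00049), but another of its probe sets was called lower.

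Epithelial junction genes were mostly lower, while simple keratins and E-cadherin were present in both groups. Of 33, 24 were lower and 1 was higher (median −2.77); the higher count was 0 without iHep replicate 1 or either colon array. Epcam, an epithelial adhesion molecule, was at 6.23, 8.96 and 9.27 in iHeps, against 13.61 and 13.67 in colon crypts (difference −5.49, SE 0.73, adjusted p = 0.0002). Cldn7 and Cldn23, claudins of the tight junction, differed by −5.15 ± 0.64 (SE, adjusted p = 0.000138) and −6.59 ± 0.46 (SE, adjusted p = 3.62e-06), and Marveld2 (tricellulin) by −6.77 ± 0.54 (SE, adjusted p = 8.74e-06). Cdh17, the liver-intestine cadherin, was at 6.32, 5.55 and 5.92 in iHeps, against 11.78 and 11.71 in colon crypts (difference −5.81, SE 0.28, adjusted p = 4.64e-07). None of these iHep arrays reached either colon array. Cdh1, which encodes E-cadherin, was at 12.60, 12.17 and 12.86 in iHeps, against 13.03 and 13.01 in colon crypts (difference −0.48, 95% interval −1.67 to 0.71), and the protease inhibitor Spint2 at 12.64, 12.48 and 12.69 in iHeps, against 12.62 and 12.81 in colon crypts (difference −0.11, 95% interval −0.53 to 0.31). Krt8, a keratin of simple epithelia, was at 12.60, 12.68 and 13.44 in iHeps, against 14.17 and 14.19 in colon crypts (difference −1.27, SE 0.58, adjusted p = 0.0886). Krt18 was at 13.18, 11.02 and 11.33 in iHeps, against 13.34 and 13.32 in colon crypts (difference −1.49, SE 0.64, adjusted p = 0.073). Neither keratin passed the threshold, and for Krt18, the partner of Krt8, iHep replicate 1 lay close to colon and the others below it. Lgals4, an intestinal galectin, was at 12.28, 11.33 and 12.83 in iHeps, against 14.01 and 14.02 in colon crypts (difference −1.88, SE 0.38, adjusted p = 0.00233).

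Hepatocyte transcription factors were not higher in iHeps than in colon as a list: of 22, 11 were lower and 3 higher (median −0.66, range −0.87 to −0.40); the higher count was 1 without Colon replicate 1. Hnf4a, 1 of the 2 transgenes, was at 7.67, 10.79 and 10.48 in iHeps, against 12.69 and 12.70 in colon crypts (difference −3.05, SE 0.77, adjusted p = 0.00818). All 3 iHep arrays were below colon, and replicate 1 was lowest by a wide margin; the 4 probe sets differed by −5.64 to −2.63, and the call was lost when probe sets that can match several transcripts (suffix _x_at or _s_at) were left out (−2.63, adjusted p = 0.0736). Foxa1, the other transgene, had 1 probe set, at 4.3, 4.14 and 4.52 in iHeps, against 10.34 and 10.13 in colon crypts (difference −5.91, SE 0.55, adjusted p = 2.21e-05), which put every iHep array under the 40th percentile; whether this probe set covers the inserted cDNA is not given in the sources used here. Foxa2 and Foxa3, close relatives of Foxa1 that also act in gut, differed by −3.15 ± 0.25 (SE, adjusted p = 8.2e-06) and −5.06 ± 0.46 (SE, adjusted p = 2.05e-05). Nr1h4, the bile acid receptor of liver and intestine, was at 4.51, 4.66 and 4.77 in iHeps, against 9.74 and 9.59 in colon crypts (difference −5.02, SE 0.22, adjusted p = 2.48e-07). Hhex, needed for liver bud growth, was at 7.53, 7.26 and 6.63 in iHeps, against 5.8 and 5.42 in colon crypts (difference 1.53, SE 0.28, adjusted p = 0.00144). Cebpa, a hepatocyte factor, was at 8.75, 8.2 and 8.55 in iHeps, against 8.89 and 9.04 in colon crypts and did not pass the threshold (difference −0.47, SE 0.25, adjusted p = 0.139). Onecut1, Nr1i3 and Creb3l3 also failed to pass it, with differences of −0.22, 0.04 and 0.08, each at low signal in both groups and higher in adult liver.

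Several plasma protein genes were higher in iHeps. Of 30, 13 (43.3%) were higher, against 32.3% of all genes tested, and 1 was lower (median 0.71, range 0.42 to 1.64); the higher count was 8 without Colon replicate 2, and the lower count was 0 without iHep replicate 2 or either colon array and 3 without iHep replicate 3. Of the 13, 7 separated the arrays by spike signal (Apoa1, Fgb, Kng1, Hpx, Itih2, Ahsg and F2). With such genes left out 6 of 23 were higher, against 29.9% of the 13701 genes then tested. The arrays with spike signal were those of cultured iHeps and of liver, so leaving such genes out can also remove hepatocyte genes. Spike signal and hepatocyte expression cannot be told apart by this split. The call of Ahsg, a fetuin, was lost with adjusted p = 0.0526 without iHep replicate 2, 0.0753 without Colon replicate 1 and 0.114 without Colon replicate 2, and with iHep and colon arrays alone (adjusted p = 0.0691). Apoa1, the main apolipoprotein of high density lipoprotein, was at 14.97, 14.90 and 14.89 in iHeps, against 6.35 and 6.68 in colon crypts (difference 8.41, SE 0.28, adjusted p = 5.62e-08), and the iHep arrays were close to the highest value in the series (15.11), so any saturation would shrink the difference. Fgb, the fibrinogen beta chain, was at 11.62, 13.89 and 14.34 in iHeps, against 5.6 and 5.51 in colon crypts (difference 7.73, SE 0.66, adjusted p = 1.35e-05). Kng1, a kininogen, was at 12.55, 12.12 and 12.18 in iHeps, against 5.38 and 6.01 in colon crypts (difference 6.59, SE 0.26, adjusted p = 1.31e-07), and it was among the genes that followed the spike. Hpx, hemopexin, was at 8.01, 11.11 and 12.14 in iHeps, against 4.96 and 4.31 in colon crypts (difference 5.79, SE 0.94, adjusted p = 0.000704). In engrafted iHeps, whose arrays had no spike signal, Apoa1 averaged 10.04 ± 0.62 and Fgb 5.84 ± 0.22 (SD, n = 2). Kng1 averaged 6.02 ± 0.23 and Hpx 4.44 ± 0.29 there (SD, n = 2). Adult liver, whose arrays had spike signal, averaged 14.68 ± 0.05 for Apoa1 and 14.26 ± 0.08 for Fgb (SD, n = 2). Fetal liver, also with spike signal, averaged 12.73 ± 0.41 for Apoa1 and 10.21 ± 0.65 for Fgb (SD, n = 2). Fga, the fibrinogen alpha chain, did not match Fgb, and was at 3.83, 4.0 and 3.5 in iHeps, against 3.62 and 3.06 in colon crypts (difference 0.44) and did not pass the threshold. Apoc2, an activator of lipoprotein lipase that did not follow the spike split, was at 10.40, 11.66 and 12.60 in iHeps, against 8.64 and 8.18 in colon crypts (difference 3.15, SE 0.65, adjusted p = 0.00276). Hp, haptoglobin, was at 9.1, 9.43 and 11.23 in iHeps, against 7.78 and 7.65 in colon crypts (difference 2.2, SE 0.54, adjusted p = 0.0066). Alb, albumin, was at 5.69, 9.9 and 11.59 in iHeps, against 7.29 and 6.77 in colon crypts; replicates 2 and 3 were above colon and replicate 1 below it, and the difference of 2.03 ± 1.29 (SE, adjusted p = 0.208) did not pass the threshold. Ttr, transthyretin, was at 4.93, 8.84 and 12.00 in iHeps, against 11.84 and 11.75 in colon crypts (difference −3.2, SE 1.5, adjusted p = 0.0975), with replicate 1 lowest and replicate 3 above both colon arrays.

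Most hepatocyte metabolic genes did not pass the threshold. Of 28, 16 were under the 40th percentile on every iHep array, and 14 were on both colon arrays. Of the 28, 5 were higher and 3 lower (median 0.08, range 0.01 to 0.21); the higher count was 2 without Colon replicate 1 and 3 with genes that separated arrays by spike signal left out. Cps1, the first enzyme of the urea cycle, was at 4.39, 4.69 and 4.79 in iHeps, against 5.22 and 5.73 in colon crypts (difference −0.86, SE 1.05, adjusted p = 0.515), and its mean level in adult liver was 13.83 ± 0.46 (SD, n = 2). Arg1, of the same cycle, G6pc, of gluconeogenesis, and Cyp2e1, a cytochrome P450, likewise did not pass the threshold, with differences of −0.36, 0.38 and 0.69. For these 4 genes every iHep and colon array was far below adult liver. Fah, of tyrosine breakdown, was at 9.87, 9.55 and 10.03 in iHeps, against 7.46 and 7.53 in colon crypts (difference 2.32, SE 0.39, adjusted p = 0.000813). Pck1, a gluconeogenic enzyme of liver and gut, was lower, at 4.77, 4.63 and 4.65 in iHeps, against 10.56 and 10.26 in colon crypts (difference −5.73, SE 0.33, adjusted p = 1.12e-06). Otc, the urea cycle enzyme that intestine shares with liver, was at 3.89, 3.57 and 4.61 in iHeps, against 7.7 and 8.13 in colon crypts (difference −3.89, SE 0.66, adjusted p = 0.000879). Cyp3a11, a steroid-metabolizing cytochrome P450, was at 4.13, 9.37 and 10.50 in iHeps, against 3.54 and 3.51 in colon crypts, so replicate 1 was near colon and the others far above it; the difference of 4.47 ± 1.46 (SE, adjusted p = 0.0267) was lost with adjusted p = 0.0817 without iHep replicate 2, 0.0741 without iHep replicate 3, 0.105 without Colon replicate 1 and 0.105 without Colon replicate 2, as well as with iHep and colon arrays alone (adjusted p = 0.0744), and the gene separated the arrays by spike signal. Bile duct and hepatic progenitor genes counted 7 lower and 3 higher of 13 (median −1.26). With the genes that separated arrays by spike signal left out of the fit, the lower count was 4. Among the 13 was Cftr, the chloride channel of ducts and crypts, at 3.16, 3.13 and 3.12 in iHeps, against 10.28 and 10.26 in colon crypts (difference −7.13, SE 0.21, adjusted p = 3.1e-08). Bicc1, another of the 13, was at 10.08, 10.62 and 11.24 in iHeps, against 4.92 and 4.48 in colon crypts (difference 5.94, SE 0.49, adjusted p = 1.1e-05).

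Many fibroblast and mesenchymal genes were higher in iHeps, though no array of the series held the fibroblasts of origin. Of 32 fibroblast and mesenchymal genes, 15 were higher (32.3% of all genes tested were) and 3 lower (median 2.96, range 1.84 to 4.25); without iHep replicate 1, without Colon replicate 1 or without Colon replicate 2 the lower count was 1. Vim, vimentin, was at 13.77, 13.88 and 13.29 in iHeps, against 7.99 and 7.62 in colon crypts (difference 5.85, SE 0.49, adjusted p = 1.16e-05). Fn1, fibronectin, was at 12.56, 12.64 and 13.11 in iHeps, against 5.68 and 6.04 in colon crypts (difference 6.91, SE 0.55, adjusted p = 8.6e-06). Cdh2, N-cadherin, which hepatocytes also express, was at 10.71, 11.48 and 11.09 in iHeps, against 3.13 and 3.26 in colon crypts (difference 7.89, SE 0.45, adjusted p = 1.08e-06). Every iHep array was above both colon arrays for each, and Cdh2 separated the arrays by spike signal. The transcription factors Snai2, Twist1 and Zeb1, which act in mesenchyme, were higher by 4.5 ± 0.36 (SE, adjusted p = 7.99e-06), 4.42 ± 0.37 (SE, adjusted p = 1.2e-05) and 4.57 ± 0.49 (SE, adjusted p = 5.55e-05); Zeb1 too separated the arrays by spike signal. Defining fibroblast markers were not all present: Thy1 was at 5.2, 5.45 and 5.15 in iHeps, against 5.38 and 5.27 in colon crypts (difference −0.06), and Dcn and Lum differed by 0.47 and 0.58 without passing the threshold. Col3a1 was at 5.22, 8.18 and 8.52 in iHeps, against 7.93 and 8.3 in colon crypts (difference −0.81, SE 1.13, adjusted p = 0.566). Col1a1 was at 5.56, 7.39 and 7.85 in iHeps, against 7.08 and 7.14 in colon crypts (difference −0.18, SE 1.17, adjusted p = 0.912), so the groups overlapped for both fibrillar collagens; with 4 scramble shRNA iHep arrays in place of the 3 iHep arrays, Col3a1 reversed (2.35, adjusted p = 0.0297).

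Extracellular matrix remodelling genes counted 10 of 24 higher (41.7%, against 32.3% of all genes tested) and 6 lower, where 21.3% of all genes were lower (median 1.02). Timp1, an inhibitor of matrix metalloproteinases, was at 11.10, 11.64 and 10.70 in iHeps, against 4.91 and 4.73 in colon crypts (difference 6.33, SE 1.12, adjusted p = 0.00115). Mmp13, a collagenase, was at 9.7, 10.19 and 9.36 in iHeps, against 3.73 and 4.04 in colon crypts (difference 5.87, SE 0.75, adjusted p = 0.00016). Plat, tissue plasminogen activator, and Timp2 were higher by 4.35 ± 0.42 (SE, adjusted p = 2.68e-05) and 4.37 ± 0.67 (SE, adjusted p = 0.000477). Lamb3 and Itgb4, of the hemidesmosomal anchor of epithelia, were lower, with differences of −4.68 ± 0.34 (SE, adjusted p = 4.94e-06) and −2.75 ± 0.56 (SE, adjusted p = 0.00248), and Lamb3 separated the arrays by spike signal. Of 16 oncofetal and imprinted genes, 10 were higher and 2 lower (median 3.23, range 1.65 to 3.78). The higher count was 6 without Colon replicate 2, and with genes that separated arrays by spike signal left out the counts were 6 higher and 1 lower. Hmga2, a chromatin protein of embryonic cells, was at 11.65, 12.11 and 11.15 in iHeps, against 7.86 and 6.84 in colon crypts (difference 4.29, SE 0.4, adjusted p = 2.17e-05). Igf2bp3, an RNA-binding protein of embryonic tissues, was at 9.73, 9.54 and 9.98 in iHeps, against 6.18 and 6.3 in colon crypts (difference 3.51, SE 0.27, adjusted p = 7.17e-06). Igf2, an imprinted growth factor, was at 7.35, 10.76 and 13.87 in iHeps, against 6.1 and 4.89 in colon crypts (difference 5.17, SE 1.41, adjusted p = 0.0116), spread widely over the iHep arrays, and the call was lost with adjusted p = 0.0843 without Colon replicate 2. Nnat, an imprinted proteolipid, was lower (difference −1.87, SE 0.21, adjusted p = 7.29e-05) and separated the arrays by spike signal.

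Genes linked to the fetal gut and to wound-associated epithelium were higher in iHeps: 11 of 17, with 1 lower (median 1.86; 2 lower without iHep replicate 1). Lgals1, galectin-1, was at 13.68, 14.27 and 13.36 in iHeps, against 8.11 and 8.43 in colon crypts (difference 5.5, SE 0.55, adjusted p = 3.39e-05). Gja1, a gap junction protein, was at 12.20, 12.88 and 12.10 in iHeps, against 6.87 and 7.61 in colon crypts (difference 5.16, SE 0.52, adjusted p = 3.55e-05). Il33, an alarmin of epithelium and stroma, was at 9.76, 11.32 and 9.9 in iHeps, against 5.62 and 5.21 in colon crypts (difference 4.91, SE 0.43, adjusted p = 1.43e-05), Tnfrsf12a, the receptor of TWEAK, differed by 3.11 ± 0.37 (SE, adjusted p = 0.000104), and Anxa8 by 2.4 ± 0.35 (SE, adjusted p = 0.000359). All iHep arrays were above colon for these genes. Il1rn, the interleukin 1 receptor antagonist, was the 1 lower member, at 5.98, 7.57 and 8.14 in iHeps, against 12.20 and 11.97 in colon crypts (difference −4.86, SE 0.51, adjusted p = 4.61e-05), and separated the arrays by spike signal. Cd24a, a surface marker of crypt and progenitor cells, and S100a6 were at high signal in both groups and did not pass the threshold, with differences of −0.42 and 0.28. Several of these genes are also expressed by fibroblasts.

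A small group of gastric genes was high in iHeps and low in colon. Of 16 gastric and foregut genes, 8 were higher and 2 lower (median 1.11, range 0.61 to 3.09), and the lower count was 1 with any 1 of the 5 arrays left out. Gkn2, a gastrokine of stomach mucous cells, was at 12.33, 13.17 and 13.73 in iHeps, against 4.47 and 4.92 in colon crypts (difference 8.38, SE 0.9, adjusted p = 5.68e-05). Tff1, the gastric trefoil factor, was at 13.14, 12.90 and 13.57 in iHeps, against 7.0 and 7.01 in colon crypts (difference 6.2, SE 1.03, adjusted p = 0.000773). Smgc, a salivary gland protein, was at 9.3, 12.90 and 13.34 in iHeps, against 5.27 and 3.65 in colon crypts (difference 7.39, SE 1.09, adjusted p = 0.000381). Psca, an antigen of gastric and prostate epithelium, was at 10.73, 10.10 and 10.96 in iHeps, against 5.41 and 5.08 in colon crypts (difference 5.36, SE 0.48, adjusted p = 1.73e-05), and Psca separated the arrays by spike signal. No iHep array overlapped colon, and in adult liver Gkn2 and Tff1 averaged 7.0 ± 0.37 and 9.42 ± 0.14 (SD, n = 2). Ctse, cathepsin E, was lower, at 6.7, 6.0 and 6.66 in iHeps, against 11.75 and 11.70 in colon crypts (difference −5.27, SE 0.91, adjusted p = 0.000963). The foregut factors Nkx2-1 and Barx1 did not pass the threshold and were at low signal in both groups (−0.32 and 0.06).

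Genes of DNA replication and mitosis were higher in iHeps: 26 of 29 passed the threshold upward and 0 downward (median 2.13). Bub1, a spindle checkpoint kinase, was at 9.94, 10.99 and 10.50 in iHeps, against 5.97 and 5.26 in colon crypts (difference 4.86, SE 0.34, adjusted p = 3.98e-06). Top2a, topoisomerase II alpha, was at 11.66, 12.19 and 11.88 in iHeps, against 8.47 and 8.34 in colon crypts (difference 3.5, SE 0.38, adjusted p = 5.68e-05). Ccnb2, Rrm2 and Aurkb, a cyclin, a ribonucleotide reductase subunit and a mitotic kinase, were higher by 3.53 ± 0.35 (SE, adjusted p = 3.27e-05), 3.46 ± 0.33 (SE, adjusted p = 2.91e-05) and 3.32 ± 0.29 (SE, adjusted p = 1.36e-05). Mki67, the usual marker of cycling cells, was at 11.30, 11.86 and 11.60 in iHeps, against 11.07 and 11.02 in colon crypts, and its difference of 0.54 ± 0.3 (SE, adjusted p = 0.158) did not pass the threshold; every iHep array was nevertheless above both colon arrays.

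CDK inhibitors and p53 targets were more often higher than lower, with 9 of 18 higher and 1 lower (median 1.11, range 0.68 to 1.36; 2 lower without iHep replicate 1). Cdkn2a, whose products p16 and p19Arf restrain the cell cycle, was at 11.24, 11.32 and 10.98 in iHeps, against 4.39 and 4.58 in colon crypts (difference 6.7, SE 0.4, adjusted p = 1.34e-06). Phlda3 and Zmat3, both p53 targets, were at 10.67, 10.77 and 10.69 in iHeps, against 5.32 and 5.68 in colon crypts (difference 5.21, SE 0.32, adjusted p = 1.7e-06) and at 11.74, 11.32 and 11.18 in iHeps, against 7.97 and 7.49 in colon crypts (difference 3.68, SE 0.26, adjusted p = 3.63e-06). All iHep arrays were above colon. Ccng1, another p53 target, differed by 3.42 ± 0.21 (SE, adjusted p = 1.84e-06). Cdkn1a, which encodes p21, was at 12.11, 11.98 and 11.76 in iHeps, against 11.62 and 11.65 in colon crypts and did not pass the threshold (difference 0.31, 95% interval −0.26 to 0.88). Gadd45a, a stress response gene, was lower (difference −3.69, SE 0.56, adjusted p = 0.000479).

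Interferon response genes were lower in iHeps. Of 21, 16 were lower and 0 higher (median −3.13, range −3.27 to −1.62, the smallest with 4 scramble shRNA iHep arrays in place of the 3 iHep arrays); the lower count was 10 without Colon replicate 1 and 10 without Colon replicate 2. Zbp1, a sensor of Z-form nucleic acid, was at 5.35, 6.4 and 6.55 in iHeps, against 12.19 and 12.07 in colon crypts (difference −6.03, SE 0.35, adjusted p = 1.26e-06). Oasl2, an oligoadenylate synthetase-like protein, was at 4.19, 8.84 and 8.63 in iHeps, against 12.91 and 12.88 in colon crypts (difference −5.68, SE 1.23, adjusted p = 0.00364). Irf7, the factor that amplifies interferon production, was at 6.84, 8.69 and 8.48 in iHeps, against 12.48 and 12.28 in colon crypts (difference −4.38, SE 0.57, adjusted p = 0.000186). Stat2, a subunit of the interferon-activated factor ISGF3, was at 5.03, 7.52 and 7.42 in iHeps, against 10.62 and 10.63 in colon crypts (difference −3.97, SE 0.63, adjusted p = 0.000617). Every iHep array was below both colon arrays. Replicate 1 was the lowest iHep array for 18 of the 21 genes. Ifit1, an antiviral RNA-binding protein, was at 7.05, 10.62 and 10.25 in iHeps, against 12.71 and 12.75 in colon crypts (difference −3.43, SE 1.5, adjusted p = 0.0789) and did not pass the threshold; replicates 2 and 3 lay far above replicate 1.

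Promoters of these genes are shown because the genes were lower together and many of the family are known to carry 1 DNA element, the interferon-stimulated response element, to which ISGF3 binds. The element was searched as a pair of GAAA with any 2 bases between them, on both strands in RefSeq promoter windows of GRCm38.p6, which run from 250 bases before to 50 bases after the start of a gene. It was found in 10 of 15 interferon response genes with a window (66.7%), against 3.99% of 27025 genes. Among tested genes it was found in 4.49% of those called lower, 2.78% of those called higher and 3.78% of those not called. Of those 10 genes, 7 were called lower, and Ifit1, Ddx58 and Bst2 were not. The 7 became 4 without Colon replicate 1 and 4 without Colon replicate 2, where the calls of Oas1a, Rsad2 and Ifih1 were lost. Ifih1, an RNA sensor, differed by −1.62 ± 0.48 (SE, adjusted p = 0.0172), and its call was lost with adjusted p = 0.0865 without Colon replicate 1 and 0.0721 without Colon replicate 2. The following stretches of 80 bases from those windows are of genes called lower. Matches of Ifit1 and Bst2, which were not called, are not shown. The stretches run 5′ to 3′ on the strand of the gene and have the matches in capitals (capitals that begin with TTTC are the element on the opposite strand).
Ifit3, chr19:34583338-34583417, plus strand: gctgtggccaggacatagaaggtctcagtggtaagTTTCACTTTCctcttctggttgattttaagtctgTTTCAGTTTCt
Oas3, chr5:120777690-120777769, minus strand: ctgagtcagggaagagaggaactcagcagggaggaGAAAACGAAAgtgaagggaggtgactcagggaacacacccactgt
Stat2, chr10:128270248-128270327, plus strand: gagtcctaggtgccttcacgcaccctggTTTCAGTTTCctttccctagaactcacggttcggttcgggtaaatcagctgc
Rsad2, chr12:26456528-26456607, minus strand: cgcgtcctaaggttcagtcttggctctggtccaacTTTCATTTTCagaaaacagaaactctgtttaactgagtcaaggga
Oas1a, chr5:120907526-120907605, minus strand: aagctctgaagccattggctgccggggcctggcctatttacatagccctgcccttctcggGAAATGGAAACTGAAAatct
Oas3, an oligoadenylate synthetase, had the element once and differed by −4.0 ± 0.47 (SE, adjusted p = 0.000105); Ifit3, a partner of Ifit1, had it on the opposite strand more than once and differed by −3.13 ± 0.69 (SE, adjusted p = 0.004). Oas1a, of the family of Oas3, had overlapping matches and differed by −2.61 ± 0.7 (SE, adjusted p = 0.0105), a call that was lost with adjusted p = 0.0589 without Colon replicate 1 and 0.0534 without Colon replicate 2. Stat2 and Rsad2, which encodes viperin, carried it on the opposite strand, and Rsad2 differed by −3.45 ± 0.96 (SE, adjusted p = 0.0127), a call that was lost with adjusted p = 0.0679 without Colon replicate 1 and 0.06 without Colon replicate 2. Irf7, Oasl1 and Oasl2 had no match in their windows and were also lower, with differences of −4.38, −4.17 and −5.68.

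Of 3 further motifs searched in the same way, only the CDX motif, searched as TTTATNG, was common enough to count. It was found in 12.5% of all genes, in 8.07% of tested genes called higher and in 10.0% of those called lower, and its reverse complement overlaps the TATA box. By list the shares were highest in 8 of 20 antimicrobial genes, 9 of 26 absorptive colonocyte genes (34.6%), 3 of 10 bile duct and progenitor genes and 4 of 15 interferon genes, while intestinal regulators had 2 of 13 (15.4%). The motif of HNF1 was found in 0.07% of all genes, and in the lists in 1 absorptive colonocyte gene and 1 of 10 bile duct and progenitor genes. The HNF4 motif CAAAGTCCA was found in 0.56% of all genes, in 0.58% of tested genes called higher and in 1.0% of those called lower. Of the lists, it was found in 2 of 22 hepatocyte metabolism genes, 1 of 10 goblet cell genes and 1 of 26 absorptive colonocyte genes. Neither was found in the 23 plasma protein genes. A match is a description of letters and not a binding site.

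Antigen presentation and mucosal defence were lower in iHeps as well. Of 15 MHC genes, 11 were lower and 0 higher (median −1.75, range −2.42 to −0.83, the smallest again with the scramble shRNA arrays). Psmb9, an immunoproteasome subunit, was at 7.2, 8.37 and 8.53 in iHeps, against 11.36 and 11.46 in colon crypts (difference −3.38, SE 0.48, adjusted p = 0.00031), and the class I peptide transporter Tap1 at 9.11, 9.91 and 9.75 in iHeps, against 11.39 and 11.29 in colon crypts (difference −1.75, SE 0.26, adjusted p = 0.000441). H2-Ab1 and Cd74, of the class II pathway, differed by −3.28 ± 0.6 (SE, adjusted p = 0.00141) and −3.02 ± 0.34 (SE, adjusted p = 7.41e-05). B2m, the class I light chain, averaged 13.51 ± 0.11 in iHeps (SD, n = 3) and 14.02 ± 0.03 in colon crypts (SD, n = 2) and did not pass the threshold (difference −0.51, SE 0.21, adjusted p = 0.0634). Of 22 antimicrobial genes, 14 were lower and 1 was higher (median −1.99, range −4.01 to −1.53), and the higher count was 2 without iHep replicate 1 and 0 without any 1 of the other arrays. Saa1, serum amyloid A, was at 4.39, 4.55 and 4.74 in iHeps, against 12.93 and 12.96 in colon crypts (difference −8.38, SE 0.27, adjusted p = 4.67e-08). Pigr, the transporter of mucosal IgA, was at 4.81, 4.41 and 4.55 in iHeps, against 12.27 and 12.31 in colon crypts (difference −7.7, SE 0.39, adjusted p = 5.89e-07). The neutrophil calprotectin genes S100a8 and S100a9 differed by −6.58 ± 0.75 (SE, adjusted p = 8.2e-05) and −7.73 ± 1.04 (SE, adjusted p = 0.000222), and Reg4, a secretory lectin, by −7.75 ± 0.23 (SE, adjusted p = 3.1e-08). The iHep arrays were near background for all of these. Reg3g and Reg3b, bactericidal lectins, were not called, and Reg3g was at 4.64, 7.07 and 9.31 in iHeps, against 4.91 and 5.58 in colon crypts, so iHep replicate 3 stood above colon.

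Markers of leukocytes moved with the same contrast. Of 20, 8 were lower and 2 higher in iHeps (median −1.36, range −2.16 to −0.75), and without Colon replicate 1 the counts were 5 lower and 1 higher, without Colon replicate 2 5 lower. Their mean level was 5.48, 5.36 and 5.32 in iHeps, against 7.13 and 7.10 in colon crypts. Tyrobp, an adaptor of myeloid cells, was at 5.42, 5.71 and 5.09 in iHeps, against 9.6 and 9.78 in colon crypts (difference −4.28, SE 1.02, adjusted p = 0.00585). Ptprc, which encodes CD45, was at 3.5, 3.42 and 3.36 in iHeps, against 7.53 and 7.06 in colon crypts (difference −3.87, SE 0.79, adjusted p = 0.00251). Ctss, cathepsin S, was at 5.02, 4.46 and 4.34 in iHeps, against 13.12 and 13.16 in colon crypts (difference −8.54, SE 0.54, adjusted p = 1.97e-06). The lymphocyte genes Cd4 and Cd79a did not pass the threshold, with differences of 0.01 and 0.09. Cd3e had a low level in both groups (6.74, 6.7 and 6.4 in iHeps, against 4.9 and 5.23 in colon crypts) and was called higher in iHeps (difference 1.55, SE 0.23, adjusted p = 0.000394). The share of leukocyte RNA in the lower interferon, MHC and defence genes was not tested. Of 11 endothelial, muscle and glial markers, 2 (18.2%) were lower, against 21.3% of all genes tested. They were Pecam1 (difference −1.87) and Plvap (difference −1.53), both of endothelium. Another 1 (9.09%) was higher, against 32.3% of all genes tested, and the median was −0.28 (range −0.78 to −0.06). Pecam1 separated the arrays by spike signal, and the higher count was 0 without iHep replicate 2 or Colon replicate 2.

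Genes of energy and lipid metabolism went both ways. Of 22 genes of fatty acid oxidation and ketogenesis, 10 were lower and 3 higher (median −1.01); the higher count was 1 without Colon replicate 2. Hadha, the trifunctional protein subunit, was at 9.15, 9.16 and 9.94 in iHeps, against 11.42 and 11.35 in colon crypts (difference −1.97, SE 0.26, adjusted p = 0.000187). Acadvl, the very long chain dehydrogenase, was at 10.85, 10.66 and 10.57 in iHeps, against 12.30 and 12.21 in colon crypts (difference −1.56, SE 0.2, adjusted p = 0.000142). Acadm, the medium chain dehydrogenase, was higher, at 11.77, 11.69 and 12.00 in iHeps, against 10.78 and 10.80 in colon crypts (difference 1.03, SE 0.25, adjusted p = 0.00614). Of 21 glycolysis and hypoxia genes, 8 (38.1%) were lower, against 21.3% of all genes tested. Another 4 (19.05%) were higher, against 32.3% of all genes tested (median −0.37, range −0.72 to −0.24). Car9, a carbonic anhydrase induced by hypoxia, was at 5.11, 5.11 and 5.06 in iHeps, against 11.20 and 11.22 in colon crypts (difference −6.12, SE 0.22, adjusted p = 7.34e-08), while Bnip3 and P4ha1, also induced by hypoxia, were higher by 2.69 ± 0.4 (SE, adjusted p = 0.000417) and 2.1 ± 0.25 (SE, adjusted p = 9.64e-05). Hk2, a hexokinase, was lower (difference −1.8, SE 0.35, adjusted p = 0.00185). Ldha and Pkm, of the end of glycolysis, did not pass the threshold, at 0.21 (95% interval −0.4 to 0.82) and −0.37 (95% interval −0.92 to 0.19). Of 20 cholesterol synthesis genes, 5 were lower, against 21.3% of all genes tested, and 1 higher (median −0.69, range −0.95 to −0.39). The lower count was 11 without iHep replicate 3, 3 without Colon replicate 2 and 3 with genes that separated arrays by spike signal left out, and the higher count was 2 without iHep replicate 2. Dhcr7, the last enzyme of the pathway, was at 8.83, 8.39 and 9.84 in iHeps, against 12.06 and 11.94 in colon crypts (difference −2.99, SE 0.42, adjusted p = 0.000294), and replicate 3 was the highest iHep array.

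Some abundant genes were shared by iHeps and colon and lower in adult liver. By a rule that asked for a 95% interval of the difference within 1 of 0 and a level at least 3 lower in adult liver than in both groups, 70 genes qualified, of 3704 with such an interval. The labels of adult liver conflict, and adult liver arrays had the highest spike signal of the series. Vdac2, a mitochondrial porin, was at 13.30, 13.24 and 13.45 in iHeps, against 13.08 and 13.14 in colon crypts (95% interval −0.22 to 0.67), with an adult liver mean of 9.94 ± 0.21 (SD, n = 2). Snrpg, a splicing protein that separated the arrays by spike signal, Eif2s2, a translation initiation factor, Ybx3, an RNA-binding protein, and Hmgb2, a chromatin protein of cycling cells, had intervals of −0.72 to 0.14, −0.62 to 0.44, −0.09 to 0.85 and −0.27 to 0.89. Both groups were higher than adult liver for Pkm as well, a pyruvate kinase that hepatocytes express little of, at 11.41, 11.54 and 12.01 in iHeps, against 12.09 and 11.96 in colon crypts and 6.71 ± 0.42 in adult liver (SD, n = 2). The most abundant of these genes was Tmsb10, an actin-binding peptide, at 14.14, 14.02 and 14.27 in iHeps, against 13.84 and 13.94 in colon crypts. However, 3 of its 4 other probe sets were called lower, and the mean of all its probe sets reversed the sign (−1.95). Probe sets of other shared genes also disagreed. The 6 of Eif2s2 differed by −3.60 to 0.06 and the 3 of Hmgb2 by 0.31 to 1.54. Those of Snrpg differed by −0.29 to 0.18 and those of Ybx3 by 0.04 to 0.38. None of the 12 most abundant is an intestinal marker. Fetal liver was also high for Vdac2 (mean 12.66), Snrpg (12.75), Eif2s2 (12.96), Ybx3 (13.54), Hmgb2 (13.08) and Tmsb10 (13.79). Engrafted iHeps were high for these genes as well, so their level was not particular to iHeps and colon. Among the 12, fetal liver was lower for Pkm (9.98), Tspan3 (9.39) and Cdkn1a (8.40).

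The 3 iHep arrays differed among themselves in a patterned way. Each line had 1 array, so differences of line, culture and array preparation cannot be told apart. The levels of 188 of the 15262 genes tested spanned at least 3 across the iHep arrays. Of these, 89 were called against colon, where 53.6% of all genes tested were called. In 144 of the 188, replicate 1 was the array farthest from the other 2 and lay below them, and in 20 it was farthest and lay above them. Of 32 fibroblast genes tested 13 were among the 188, as were 6 of 33 junction and keratin genes, 6 of 16 oncofetal genes and 5 of 21 interferon genes. These counts stand against 188 of 15262 over all genes tested. Bgn, biglycan, was at 7.48, 13.43 and 13.25 in iHeps, against 6.35 and 6.36 in colon crypts, so that replicate 1 was near colon and the others far above it; the difference of 5.03 ± 1.7 (SE, adjusted p = 0.0304) was lost with adjusted p = 0.0943 without iHep replicate 2, 0.09 without iHep replicate 3, 0.115 without Colon replicate 1 and 0.114 without Colon replicate 2, and with iHep and colon arrays alone (adjusted p = 0.0518). Col6a3, a collagen, was at 5.38, 10.43 and 11.87 in iHeps, against 4.49 and 5.22 in colon crypts, and Pdgfrb, a mesenchymal growth factor receptor, at 4.45, 9.48 and 9.86 in iHeps, against 7.83 and 9.06 in colon crypts. Replicate 1 was lowest for both. Replicate 1 was also lowest for Esrp1, a splicing regulator of epithelia, at 5.05, 8.91 and 10.16 in iHeps, against 12.06 and 11.98 in colon crypts, a difference from colon whose call was lost with adjusted p = 0.0717 without Colon replicate 1 and 0.067 without Colon replicate 2, and with iHep and colon arrays alone (adjusted p = 0.0508). It was lowest for Dsg2, a desmosomal cadherin, at 7.17, 10.71 and 11.47 in iHeps, against 11.75 and 11.87 in colon crypts. Of the 32 fibroblast genes, replicate 1 was the lowest iHep array for 23 and the highest for 4, against 31.8% lowest and 37.1% highest over all genes tested. Of the 33 junction and keratin genes it was lowest for 18 and highest for 8, Krt18 being 1 of these 8. The median deviation of the junction genes from the iHep mean was −0.17 in replicate 1, −0.12 in replicate 2 and 0.44 in replicate 3. Rpl39l, a ribosomal protein paralogue, had the widest range, at 4.53, 12.16 and 12.34 in iHeps, against 5.08 and 5.35 in colon crypts, and Ogn, a small leucine-rich proteoglycan, the next, at 4.41, 11.46 and 11.92 in iHeps, against 4.92 and 4.13 in colon crypts (called higher, but lost with adjusted p = 0.122 without Colon replicate 1 and 0.181 without Colon replicate 2, and with no filter on low values at adjusted p = 0.0514, quantile normalization repeated at 0.0507 and iHep and colon arrays alone at 0.114). Replicate 1 was instead highest for Krt7, a duct keratin (12.03, 8.16 and 8.79 in iHeps, against 11.06 and 11.09 in colon crypts), and Msln, mesothelin (13.05, 9.83 and 8.11 in iHeps, against 5.65 and 5.78 in colon crypts). The labels call the lines independent and give no passage number.

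**Figure D5:**
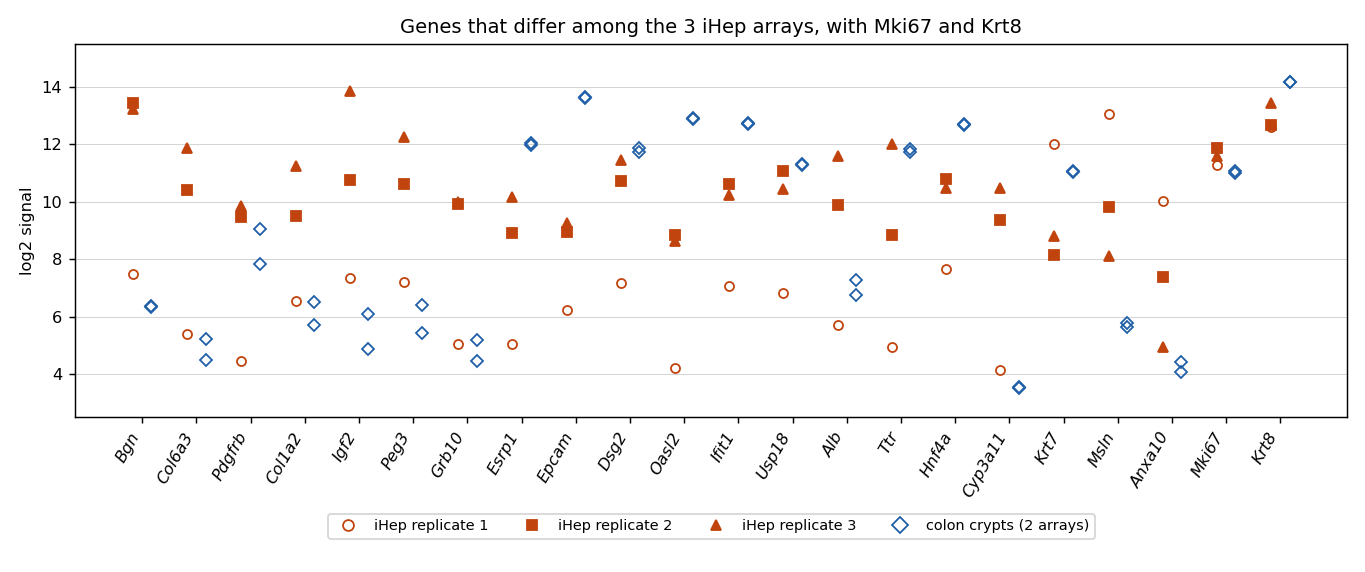
Log2 signal by array of 20 genes that differ among the 3 iHep arrays, with Mki67 and Krt8 for comparison; open circles are iHep replicate 1, filled symbols the other iHep arrays and blue diamonds the 2 colon arrays. Replicate 1 lay apart from the others for Bgn, Col6a3, Grb10, Esrp1, Oasl2 and Cyp3a11 (low) and for Krt7 and Msln (high). Anxa10 fell from replicate 1 (10.03) through replicate 2 (7.38) to replicate 3 (4.95).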

How the data were processed

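RNA of each sample (100 ng) was amplified, biotin-labelled and hybridised to a mouse expression microarray, per the labels' protocols. The deposited values are log2 signals per probe set made with RMA, per the submitters' processing notes; the RMA version and the background and annotation settings are not given in the sources used here. RMA sets the probe intensities of all arrays to 1 distribution, so a difference is relative to the other genes on the array, and totals of RNA per cell are lost. The number of arrays limits the precision.

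Samples were grouped by title: iHep (n = 3) and Colon (n = 2). The gene lists and the genes described were chosen with earlier results of these data known. Of 45101 probe sets, 34945 had 1 gene symbol in the platform annotation, 932 had several, 9160 had none there and 64 were controls; 9010 genes had more than 1 probe set, and the one with the highest mean over the 25 arrays was kept. Genes above the 40th percentile of the array on at least 2 arrays were fitted in limma 3.58.1 (R 4.3.3, lmFit and eBayes) with 11 arrays (iHep, Colon, Fetal_liver, Adult_liver, Engrafted_iHep; 6 residual degrees of freedom), and the contrast iHep minus Colon was called at a Benjamini-Hochberg adjusted p under 0.05. Intervals are 95% intervals of the difference, ± is the SE for a difference and the SD for a mean. Apart from calling the iHep lines independent, the labels do not say that samples came from separate cultures or mice, so p-values measure the spread between these samples.

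Any member of a list could be named, largest differences first, together with the 12 highest and 12 lowest genes whose groups did not overlap, the 12 most abundant shared genes and the 10 genes with the widest range over the iHep arrays. Poly-A spike and hybridisation control probe sets entered no fit. Promoter windows came from RefSeq (GRCm38.p6; 27025 genes). The fit was tested on simulated data with the same 15262 genes, of which only 50 were shifted at each size. It called 0% of the genes shifted by 0.5 log2 units, 10% at 1 unit, 92% at 2 units and 96% at 4 units. Unchanged genes made up 3.88% of its calls. With so few shifted genes the adjustment was stricter than in the real data, where 53.6% of genes were called. These shares therefore do not give the sensitivity of the real comparison. Replicate numbers did not pair the samples: deviations of same-numbered iHep and colon arrays correlated at −0.02 and −0.01.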

Additional observations from a re-analysis of the deposited data

Results flagged for a closer look

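The poly-A spike probe sets, which are outside the measurement of mouse genes and entered no comparison, differed between iHeps and colon by a median of 4.14 on the log2 scale. All 24 lay higher on each of the 3 iHep arrays, where their median was 7.97 to 8.31, than on the 2 colon arrays, where it was 3.78 and 3.85. Spike signal was also present on cultured iHeps with shRNA and on fetal and adult liver, and absent from engrafted iHeps and induced macrophages.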

How the results depend on the processing

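The call threshold held 8173 genes (4926 higher, 3247 lower). With a minimum log2 change of 1 in the test (limma's treat) it held 2867, of which 1539 were higher and 1328 lower. Leaving out 1 array gave 5856 to 7429 genes, with 3479 to 4444 higher and 2318 to 2985 lower; a lone colon array was then assumed to vary like the other groups. The replicate number as a block gave 7023 (4189 higher, 2834 lower), although the numbers do not pair the samples. Leaving out the genes that separated arrays by spike signal, an alternative added after seeing the data, gave 6587 (4090 higher, 2497 lower). The other alternatives ranged from 7205 (filter at the 60th percentile) to 10231 (all 25 arrays in 1 model). Centring each array on its median gave 8528, of which 5591 were higher and 2937 lower, and the mean of all probe sets of a gene gave 8097, of which 4239 were higher and 3858 lower. Of the results for named genes and lists, the sign reversed in a few. With the mean of all probe sets these were Galnt3 (−1.46), Klk1 (−4.90), Mdm2 (−0.96), Mgst3 (0.68), Msmo1 (−0.82), Prox1 (0.29), Rb1 (−0.96), Sfpq (−0.55), Tmsb10 (−1.95) and Znrf3 (−0.19), where probe sets of 1 gene differ. Without _x_at and _s_at probe sets they were Gkn3 (−0.69), Itga5 (0.66), Klk1 (−10.25), Laptm5 (1.93), Lss (0.25) and Plagl1 (−0.48). With 4 scramble shRNA iHep arrays in place of iHep they were Apoe (1.95), Col3a1 (2.35), Galnt3 (−0.86), Hoxd10 (0.77), Lcn2 (2.54) and Tap2 (0.59). The cause was not tested. Signal near background limits 1858 of the called genes on 1 side, and 2 colon arrays are the smallest group.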

Other observations

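Outside the lists, Efemp1, which encodes the matrix protein fibulin-3, was at 6.91, 11.91 and 12.78 in iHeps, against 3.88 and 3.85 in colon crypts (difference 6.67, SE 1.39, adjusted p = 0.00285). Dclk1, a kinase of neurons and tuft cells and a member of the tuft cell list, was at 3.76, 9.38 and 9.96 in iHeps, against 3.97 and 3.78 in colon crypts and did not pass the threshold (difference 3.82, SE 1.59, adjusted p = 0.0665). In both, iHep replicate 1 was the lowest iHep array, and for Dclk1 it lay just below both colon arrays.

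Genes of the sex chromosomes were chosen after their values were seen. Xist, the RNA that coats the inactive X chromosome, was at 12.73, 12.60 and 12.52 in iHeps, against 12.16 and 12.25 in colon crypts and did not pass the threshold (difference 0.41, SE 0.22, adjusted p = 0.145). Eif2s3y, a translation factor on the Y chromosome, was at 3.48, 3.56 and 3.81 in iHeps, against 6.25 and 6.36 in colon crypts (difference −2.69, SE 0.25, adjusted p = 1.97e-05), with every iHep array under the 40th percentile and both colon arrays above it.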
